A study of Mus musculus with 8 samples.

Results

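Follicular helper genes were measured in CD4+ T cells taken from inflamed mouse knees with and without the amino acid transporter gene Slc7a5. The 10 genes were chosen by symbol, with earlier results of these data known. They were Bcl6, Il21, Cxcr5, Icos, Sh2d1a, Slamf6, Maf, Tox2, Ascl2 and Cd200, out of 24421 gene symbols in the count table. All 10 had a row in the table, 8 had enough counts to be tested, Tox2 had counts in 4 libraries only, and Ascl2 had none. Cd200 was the 1 tested gene of the list for which every Slc7a5 KO library lay above every WT library. So did 129 of all 8489 tested genes (1.52%). No gene of the list passed the test for a change, nor did any of the 8489 tested genes.

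The tested cells were CD4+ T cells sorted from digested knee joints of male Slc7a5 knockout (KO) mice with antigen-induced arthritis, aged 16 weeks (n = 4 libraries). The comparison cells were sorted in the same way from wild-type (WT) male mice of the same age with the same arthritis (n = 4 libraries), so both genotypes carried the disease. In this model an animal that has been immunised against an antigen receives that antigen in the joint. The deleted part of Slc7a5, the cell type or promoter behind the deletion, and the number of cells and of animals behind each library were not given in the sources used. The p-values therefore measure library-to-library spread, part of which may be technical.

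Follicular helper T cells are CD4+ T cells that enter B cell follicles, where they help B cells to mature their antibodies. The repressor Bcl6 is the defining transcription factor of these cells, the chemokine receptor Cxcr5 guides them into follicles, and the cytokine Il21 acts on B cells. Peripheral helper T cells, described in human rheumatoid joints, share the cytokine and the contact molecules with follicular helper cells but lack CXCR5, and they carry receptors for inflamed tissue instead.

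Slc7a5, the light chain of a transporter of large neutral amino acids, was the targeted gene and lies at chr8:121881150-121907694 (GRCm38). It had 0 counts in each of the 4 KO libraries, against 385, 194, 410 and 0 counts in WT replicates 1 to 4. Against a floor of 3 counts over the pooled KO libraries, which covers counting error only, the gene was at least 238.6-fold lower in KO. Because WT replicate 4 was also at 0, the groups touched, and the exact permutation p (two-sided, n = 4 each) was 0.143. WT replicate 4 is thus not checked by this gene. In WT replicates 1 to 3 Slc7a5 was scarce, at 10.7, 7.01 and 12.6 CPM. A 0 in a single KO library therefore checks its genotype only weakly. The share of like genes missing was not computed for Slc7a5.

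Library totals were 18837650 to 25853856 counts in KO and 21873678 to 36436923 counts in WT. At least 1 count was seen for 5221 to 9358 genes per KO library, against 7957 to 10139 genes per WT library. KO replicate 4 had the fewest, and 43.7% of the tested genes were at 0 in it. The other libraries had 2.86% to 19.3% of tested genes at 0. Of the 10 helper genes, KO replicates 1 to 4 detected 8, 9, 8 and 5, and WT replicates 1 to 4 detected 8, 9, 9 and 9. A 0 for a scarce gene in KO replicate 4 therefore has to be read against the share of all genes of like abundance that were also missing there. That share is given below for the 10 helper genes only, and not for markers or genes of the further lists. In bulk RNA, fewer cells of a type and less RNA per cell cannot be told apart.

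Levels are given as CPM, read counts brought to a common library size after correction by TMM, the trimmed mean method of edgeR, and fold changes are log2 of KO over WT with their standard error (SE). A gene passed at a Benjamini-Hochberg adjusted p under 0.05 in edgeR's quasi-likelihood test over 8489 genes. In that test 0 genes passed (0%), and the smallest adjusted p was 0.437. Without adjustment, 326 genes (3.84% of those tested) had a p under 0.05, and 0 of the 8 tested helper genes were among them. DESeq2 called 387 of 10659 genes, 3.63%, of which 0 were helper genes.

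**Figure D1:**
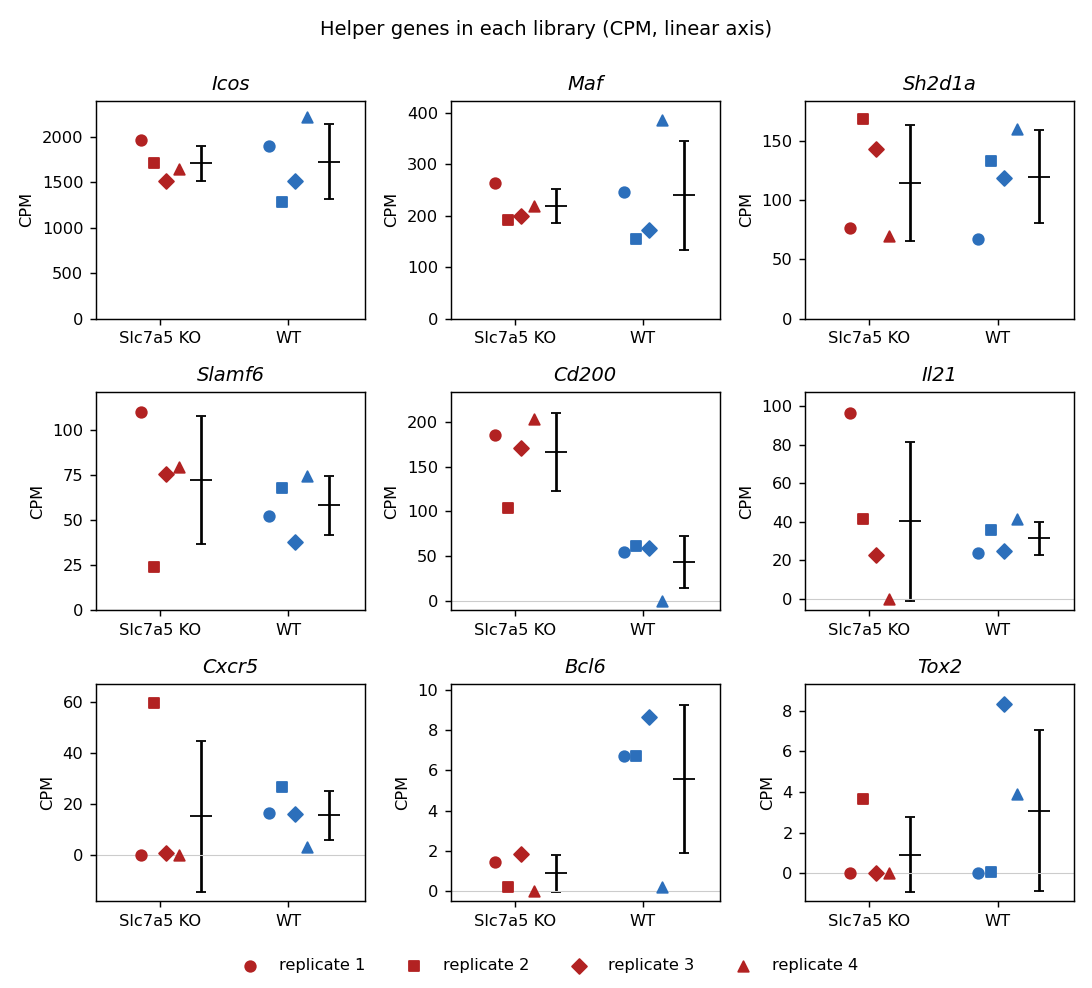
CPM of the 9 detected helper genes in each library (linear axes, 1 panel per gene, Slc7a5 KO in red left of WT in blue, marker shape for the replicate number, horizontal bar and whiskers for mean ± SD, n = 4 each). Cd200 is the panel in which the KO points, at 104 to 204 CPM, lie clear of the WT points, at 0.0883 to 61.0 CPM.

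The surface molecules through which helper cells meet B cells and myeloid cells came first in abundance. Icos, a co-stimulatory receptor of the CD28 family that follicular helper cells need, lies at chr1:60977927-61000320. It was at 1965, 1710, 1514 and 1640 CPM in KO replicates 1 to 4, against 1894, 1287, 1511 and 2212 CPM in WT replicates 1 to 4. The groups overlapped fully, with all 4 KO libraries inside the WT range. Its mean was 1707 ± 190 CPM in KO and 1726 ± 410 CPM in WT (SD, n = 4 each), a log2 fold change of -0.02 with an SE of 0.20. The adjusted p was 1.0 in edgeR's test. The sign of so small a difference turned without WT replicate 1 (0.03), WT replicate 4 (0.13) or KO replicate 3 (0.04). Icos alone supplied 71.1% to 74.2% of the summed CPM of the 10 genes in the KO libraries and 72.6% to 80.2% in the WT libraries.

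Cd200, a surface glycoprotein that engages the inhibitory receptor Cd200r1 on myeloid cells and is carried by many follicular helper cells, lies at chr16:45382135-45409053. It was at 186, 104, 172 and 204 CPM in KO replicates 1 to 4, from 4414, 1876, 4308 and 3902 counts. In WT replicates 1 to 4 it was at 54.3, 61.0, 58.5 and 0.0883 CPM, from 1955, 1688, 1902 and 2 counts. Every KO library was above every WT library, and 3 of the 4 WT libraries lay close together while WT replicate 4 was almost without Cd200. Among all tested genes, 129 (1.52%) had every KO library above every WT library. The mean was 166 ± 43.5 CPM in KO and 43.5 ± 29.1 CPM in WT (SD, n = 4 each). The log2 fold change of 1.94 had an SE of 1.12 and did not pass (edgeR adjusted p = 1.0). The exact permutation p for this single gene was 0.0286, the smallest that 4 against 4 libraries allow.

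WT replicate 4 added to the size of this difference. Of 1385 genes within 1.5 times the Cd200 mean of the other 7 libraries, 27 (1.95%) were under 1 CPM in WT replicate 4, so the near absence of Cd200 there was uncommon for a gene of its abundance. Without WT replicate 4 the log2 fold change was 1.52 (edgeR adjusted p = 0.656). With both replicates numbered 4 left out, Cd200 averaged 154 ± 43.6 CPM in KO and 58.0 ± 3.36 CPM in WT (SD, n = 3 each), a log2 fold change of 1.39 (edgeR adjusted p = 0.435). In that smaller comparison 477 of 9137 tested genes, 5.22%, had every KO library above every WT library. Whichever single library was left out, every remaining KO library stayed above every remaining WT library for Cd200, and the log2 fold change ran from 1.52 to 2.12.

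Cells other than T cells also make Cd200, among them B cells, endothelial cells and some myeloid cells. Of 14 B and plasma cell markers, 7 had no count in any of the 8 libraries, including Ms4a1 and Pax5. Together these B and plasma cell markers reached 31.5, 35.2, 56.0 and 0.104 CPM in KO replicates 1 to 4. WT replicates 1 to 4 had 4.67, 2.998, 8.12 and 0 CPM. KO replicates 1 to 3 thus lay above every WT library. KO replicate 4, where Cd200 was highest, was also the library with 43.7% of the tested genes at 0. The 14 endothelial and stromal markers summed to 39.3 to 253 CPM in KO and 195 to 311 CPM in WT, with Emcn, Col1a2, Pdgfra and Pdgfrb at 0 in all 8 libraries, and to 39.3 CPM in KO replicate 4. The 16 markers of monocytes, macrophages and dendritic cells, most of whose signal came from class II genes such as Cd74 and H2-Ab1, summed to 8745, 9965, 1968 and 10892 CPM in KO replicates 1 to 4, against 3042, 1343, 1231 and 1262 CPM in WT replicates 1 to 4. The macrophage marker Adgre1 was at 0 in all 8 libraries. Csf1r, the receptor of macrophage colony-stimulating factor, was at 0, 44.3, 21.9 and 0.0522 CPM in KO replicates 1 to 4, against 0 in all 4 WT libraries. In KO replicate 3, whose sum of 1968 CPM lay inside the WT range, Cd200 was at 172 CPM, above all 4 WT libraries. Csf1r, Lyz2, Cd14 and traces of C1qa, at 4.34 CPM, were nevertheless present there. Lyz2 and Cd14 were also present in all 4 WT libraries, at means of 23.7 and 23.4 CPM. Both were at 0 in KO replicates 1 and 2. They were at 25.5 and 22.2 CPM in KO replicate 3, and at 0.366 and 0.209 CPM in KO replicate 4. Itgax and Itgam had counts in WT libraries only. The part of these markers in the Cd200 difference was not tested beyond those values.

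Slamf6 and Sh2d1a act together at the contact between T and B cells, Slamf6 as a surface receptor that binds itself on the partner cell and Sh2d1a (the adaptor SAP) as the signalling molecule beneath it. Slamf6, at chr1:171917515-171953170, was at 110, 24.1, 75.2 and 79.4 CPM in KO replicates 1 to 4, against 52.0, 67.6, 37.7 and 74.4 CPM in WT replicates 1 to 4. KO replicate 2 was the lowest and KO replicate 1 the highest of the 8, so the KO values enclosed the WT values. The log2 fold change was 0.31 with an SE of 0.88. Sh2d1a, at chrX:42502453-42529330, was at 76.8, 168, 143 and 69.5 CPM in KO replicates 1 to 4, against 66.9, 133, 119 and 160 CPM in WT replicates 1 to 4. The groups overlapped over almost their whole range, and the log2 fold change was -0.07 with an SE of 0.53. Its sign turned without WT replicate 4 (0.11), KO replicate 1 (0.09) or KO replicate 4 (0.10). The 2 partners were not highest in the same libraries: in KO replicate 2 Slamf6 was at its lowest while Sh2d1a was at its highest.

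Among the transcription factors, Maf was the abundant one. Maf (c-Maf), which drives Il21 and Il10 in helper T cells, lies at chr8:115682942-115707794. It was at 264, 192, 199 and 220 CPM in KO replicates 1 to 4, against 247, 155, 171 and 387 CPM in WT replicates 1 to 4. All 4 KO libraries fell inside the WT range, whose upper end was set by WT replicate 4. Its log2 fold change was -0.13 with an SE of 0.36, and 0.20 without WT replicate 4.

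Bcl6, at chr16:23965052-23988852, was scarce in these joint T cells. It was at 1.47, 0.222, 1.87 and 0 CPM in KO replicates 1 to 4, from 35, 4, 47 and 0 counts. In WT replicates 1 to 4 it was at 6.70, 6.72, 8.65 and 0.221 CPM, from 241, 186, 281 and 5 counts. WT replicates 1 to 3 lay above all 4 KO libraries, whereas WT replicate 4 lay among them, so the groups overlapped. The mean was 0.892 ± 0.921 CPM in KO and 5.57 ± 3.68 CPM in WT (SD, n = 4 each). The log2 fold change was -2.63 with an SE of 2.12 and did not pass (edgeR adjusted p = 1.0), and the exact permutation p was 0.114.

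Low values of genes this scarce were common in several libraries. Of genes within 1.5 times the Bcl6 mean of the other 7 libraries, 76.9% were under 1 CPM in KO replicate 4, 49.3% in KO replicate 2 and 44.4% in WT replicate 4. With both replicates numbered 4 left out, Bcl6 averaged 1.19 ± 0.861 CPM in KO and 7.36 ± 1.12 CPM in WT (SD, n = 3 each), and every KO library was below every WT library. So were 989 of 9137 tested genes, 10.8%. Without WT replicate 4 alone, Bcl6 was again below in every KO library, as were 8.21% of the tested genes.

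Bcl6 and Il21 are known targets of STAT3 in mouse T cells, which cytokines such as IL-6 and IL-21 activate, and NFAT carries the T cell receptor signal to cytokine genes. The promoter windows are therefore shown for Bcl6 and Il21, with that of Cd200, whose groups did not overlap, beside them. Sequences are from RefSeq (GRCm38.p6), each on the minus strand from 250 bases before to 50 after a start site, with motif matches in capitals. Windows were found for 6 of the 10 genes.
Bcl6, gene start, chr16:23988803-23989102: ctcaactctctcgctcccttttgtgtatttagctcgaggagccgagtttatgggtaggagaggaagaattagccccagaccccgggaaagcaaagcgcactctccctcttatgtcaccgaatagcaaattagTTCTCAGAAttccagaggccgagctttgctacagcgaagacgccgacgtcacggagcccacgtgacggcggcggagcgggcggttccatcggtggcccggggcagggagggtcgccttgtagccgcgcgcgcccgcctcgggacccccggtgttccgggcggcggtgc
Bcl6, internal start, chr16:23981234-23981533: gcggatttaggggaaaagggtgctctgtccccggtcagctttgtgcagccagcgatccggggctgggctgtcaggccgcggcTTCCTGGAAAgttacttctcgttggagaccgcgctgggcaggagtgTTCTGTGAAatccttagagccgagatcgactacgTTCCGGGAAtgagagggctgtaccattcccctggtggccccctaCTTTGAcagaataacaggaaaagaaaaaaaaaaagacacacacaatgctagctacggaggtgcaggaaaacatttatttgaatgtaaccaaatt
Il21, chr3:37232587-37232886: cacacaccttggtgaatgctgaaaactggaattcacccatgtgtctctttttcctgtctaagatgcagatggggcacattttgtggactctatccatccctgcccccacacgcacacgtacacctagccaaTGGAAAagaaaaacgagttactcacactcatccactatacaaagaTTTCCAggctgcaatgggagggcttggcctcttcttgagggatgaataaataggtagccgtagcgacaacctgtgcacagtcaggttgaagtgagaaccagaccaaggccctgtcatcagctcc
Cd200, chr16:45409004-45409303: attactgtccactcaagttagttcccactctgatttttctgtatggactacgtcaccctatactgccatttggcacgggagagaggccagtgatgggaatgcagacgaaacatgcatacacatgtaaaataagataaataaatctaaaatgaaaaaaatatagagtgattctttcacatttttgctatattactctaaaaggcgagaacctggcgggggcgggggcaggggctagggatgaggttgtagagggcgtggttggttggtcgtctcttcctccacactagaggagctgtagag
The window at the Bcl6 gene start held 1 STAT match (TTCNNNGAA) at position -118 from the start site. The window at the internal start held 3, at positions -168, -122 and -88, a TCF/LEF match (CTTTGA) at -44, and an NFAT match (TGGAAA) at -164 that overlaps the first of the STAT matches. The Il21 window held 2 NFAT matches, at -119 and, on the other strand, at -74. The Cd200 window held no match to the 7 motifs searched on both strands. Across 32851 mouse promoter windows of the same length, 8.30% held a STAT match, 16.0% a TCF/LEF match and 21.4% an NFAT match, so single matches are common. The other motifs searched were AP-1 (TGANTCA), in 7.81% of windows, the Maf half-site (TGCTGAC), in 4.67%, CRE (TGACGTCA), in 1.79%, and the E-box CAGCTG, in 16.3%. A match is a stretch of letters and says nothing of binding in these cells.

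Tox2 and Ascl2, factors that act with or ahead of Bcl6 in mouse follicular helper cells, were at or near the limit of detection. Tox2, at chr2:163203125-163324170, had 0, 66, 0 and 0 counts in KO replicates 1 to 4, against 0, 2, 271 and 88 counts in WT replicates 1 to 4. It was thus present in 1 KO library and 3 WT libraries, at no more than 8.34 CPM, and did not reach the filter on low counts. In the same fit without a filter its log2 fold change was -1.75 with an SE of 3.45. Without KO replicate 2, Tox2 was at 0 in every KO library. Of genes within 1.5 times its level, 32.9% in KO replicate 1, 23.6% in KO replicate 3 and 70.5% in KO replicate 4 were likewise under 1 CPM. Ascl2, at chr7:142966829-142969264, had 0 counts in all 8 libraries and was not detectable at this depth.

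The cytokine Il21, at chr3:37222759-37232636, was detected in 7 of the 8 libraries. It was at 96.3, 41.6, 22.7 and 0 CPM in KO replicates 1 to 4, against 23.7, 35.7, 24.8 and 41.2 CPM in WT replicates 1 to 4. The WT libraries lay within a narrow band, while the KO libraries spread on both sides of it, from the highest to the lowest of the 8. The coefficient of variation was 102% in KO and 27.1% in WT. The mean was 40.1 ± 41.1 CPM in KO and 31.3 ± 8.50 CPM in WT (SD, n = 4 each), and the log2 fold change of 0.36 had an SE of 1.69. Without KO replicate 1, the library with the most Il21, it was -0.54. In KO replicate 4, 1335 of 2153 genes of like abundance (62.0%) were also under 1 CPM.

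Cxcr5, at chr9:44511787-44561877, was present in every WT library, and in KO at more than 1 CPM in 1 library. It was at 0.0421, 59.8, 0.876 and 0 CPM in KO replicates 1 to 4, from 1, 1077, 22 and 0 counts. In WT replicates 1 to 4 it was at 16.6, 26.6, 16.2 and 3.09 CPM, from 598, 737, 526 and 70 counts. KO replicate 2 had the highest Cxcr5 of all 8 libraries and the other 3 KO libraries had less than every WT library. The means, 15.2 ± 29.8 CPM in KO and 15.6 ± 9.65 CPM in WT (SD, n = 4 each), therefore describe no single library of the KO group. The medians were 0.459 CPM in KO and 16.4 CPM in WT.

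The Cxcr5 comparison depended on KO replicate 2 and on the method of fitting. With all 8 libraries edgeR gave a log2 fold change of -0.04 with an SE of 2.31. With the same 8 libraries it was -4.56 by limma voom, -4.52 by voom with quality weights and -5.48 with a block on the replicate number. Cxcr5 passed in none of these. The median of all tested genes in those fits was -1.28, -0.36 and -0.68, in that order. Without KO replicate 2 the Cxcr5 log2 fold change in edgeR was -5.67. Every remaining KO library then lay below every WT library, as did 6.93% of all genes tested in that set. In edgeR the sign was positive without KO replicate 1 (0.38), KO replicate 3 (0.36), KO replicate 4 (0.36) or WT replicate 2 (0.32). Of genes of like abundance, 29.1% in KO replicate 1, 18.6% in KO replicate 3 and 78.1% in KO replicate 4 were under 1 CPM. Cxcr5 overlaps Bcl9l on the opposite strand, and the strand setting of the counting was not given in the sources used, so reads of the 2 genes cannot be told apart in the overlap. Bcl9l had 0, 0, 1 and 0 counts in KO replicates 1 to 4, against 132, 164, 763 and 430 counts in WT replicates 1 to 4. In KO replicate 2, Cxcr5 thus had 1077 counts where Bcl9l had none.

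**Figure D2:**
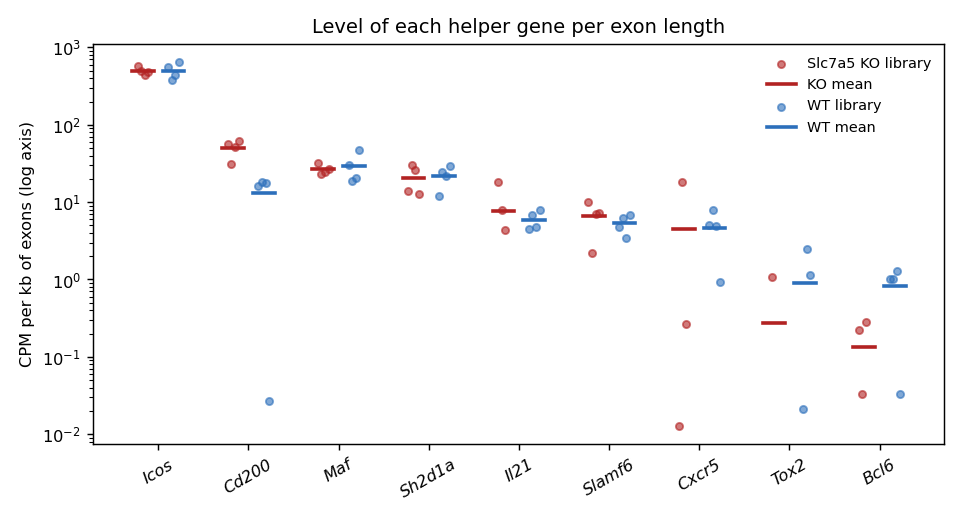
CPM per kb of exon length for the 9 detected helper genes on a log axis (points for libraries, Slc7a5 KO in red left of WT in blue, horizontal lines for the means of 4 libraries, libraries at 0 not drawn but included in the means). Icos stands at about 500 CPM per kb in both genotypes, with a mean of 498 in KO and 503 in WT, and Bcl6 at the foot, with 0.133 in KO and 0.832 in WT.

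Per kb of exon length the genes fell in the order Icos, Cd200, Maf, Sh2d1a, Il21, Slamf6, Cxcr5, Tox2 and Bcl6 in KO, with means of 498, 50.1, 26.5, 20.8, 7.63, 6.66, 4.56, 0.270 and 0.133 CPM per kb. In WT the means were 503 for Icos, 13.1 for Cd200, 29.1 for Maf, 21.8 for Sh2d1a, 5.96 for Il21, 5.35 for Slamf6, 4.69 for Cxcr5, 0.904 for Tox2 and 0.832 for Bcl6 CPM per kb. Cd200 was next to Icos in KO, whereas in WT it ranked below Maf and Sh2d1a. Icos lay clear of every other gene in both genotypes, and below it the range of each gene overlapped that of its neighbour in the order in both genotypes. Within each KO library, however, Cd200 was above Maf. By mean CPM over the 8 libraries, Icos stood at percentile 99.4 of the tested genes, Maf at 91.2, Sh2d1a at 80.5 and Cd200 at 78.4. Bcl6 stood at 1.98.

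The spread between libraries followed no single order of the genotypes. Icos varied least, with a coefficient of variation of 11.1% in KO and 23.7% in WT, and Maf varied by 14.9% in KO and 44.1% in WT. Cd200 varied by 26.1% in KO and 66.8% in WT, the WT value resting on replicate 4. The scarce genes varied more in KO, where Bcl6 reached 103% and Cxcr5 196%, against 66.1% and 61.7% in WT. Transcript GC content, which amplification can favour or disfavour, was low for Sh2d1a and Il21, at percentiles 1.20 and 4.85 of the tested genes, and was 44.4% for Cd200, at percentile 25.7.

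**Figure D3:**
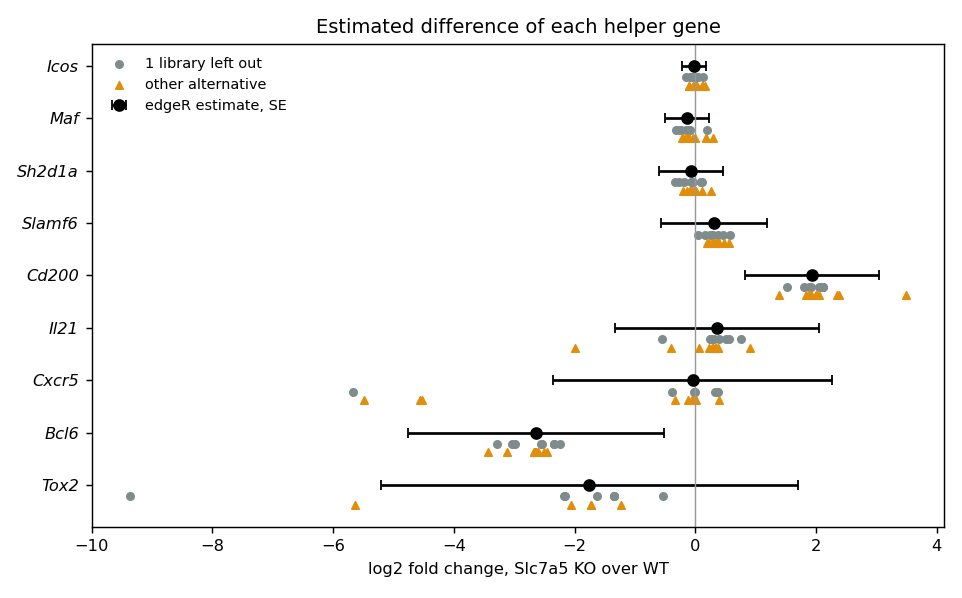
Log2 fold change of Slc7a5 KO over WT for the 9 detected helper genes (black points with bars of 1 SE from edgeR with all 8 libraries, grey points for each library left out in turn, orange triangles for the other alternatives). Cd200, at 1.94, stays right of 0 and Bcl6, at -2.63, left of 0 under every alternative drawn, while Cxcr5 moves to -5.67 without KO replicate 2.

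Across the 8 tested helper genes, 3 estimates were higher and 5 lower in KO, and the median log2 fold change was -0.03, beside -0.12 for all tested genes. None of the 8 had every KO library below every WT library, a pattern seen in 392 of all tested genes (4.62%). The summed CPM of the 10 genes was 2128 to 2699 in KO and 1772 to 2882 in WT, and the ranges overlapped.

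Further genes of the same programme were read in 4 lists. Of 13 factors that support follicular helper differentiation, 11 were tested and 0 passed, with 5 estimates higher and 6 lower and a median log2 fold change of -0.16. Stat3, which carries IL-6 and IL-21 signals, was at 494 ± 109 CPM in KO and 604 ± 154 CPM in WT (log2 fold change -0.29, SE 0.26). Tcf7 and Lef1, the TCF factors that act ahead of Bcl6, differed by 0.21 (SE 0.39) and 0.38 (SE 1.33) on the log2 scale. Batf, an AP-1 factor, was at 207 ± 145 CPM in KO and 127 ± 32.3 CPM in WT. Tox and Ikzf3 had log2 fold changes of -0.16 (SE 1.35) and -0.31 (SE 0.65). All 6 of these genes had overlapping groups. Lef1 and Tox were at 0 in KO replicate 4. The overlap of Lef1 rested on that library, as KO replicates 1 to 3 were at 220, 162 and 187 CPM. WT replicates 1 to 4 were at 79.2, 145, 90.1 and 124 CPM.

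Of 13 genes that oppose the follicular fate or mark exit from it, all were tested and 0 passed, with 6 estimates higher and 7 lower and a median log2 fold change of -0.12. At an unadjusted p under 0.05, 2 were higher and 1 lower, beside 3.84% of all tested genes in either direction. S1pr1, the receptor that draws T cells out of tissue towards blood and lymph, was at 160, 159, 274 and 180 CPM in KO replicates 1 to 4, against 125, 40.8, 94.0 and 118 CPM in WT replicates 1 to 4. It was the 1 gene of this list with every KO library above every WT library (log2 fold change 1.04, SE 0.47, edgeR adjusted p = 1.0). That pattern was seen in 1.52% of all tested genes. Il2ra, the alpha chain of the IL-2 receptor, was at 1371 ± 363 CPM in KO and 801 ± 414 CPM in WT. Its groups overlapped through WT replicate 4 alone, at 1354 CPM. Selplg, a selectin ligand that is low on mouse follicular helper cells, was at 936 ± 125 CPM in KO and 1428 ± 383 CPM in WT. The Selplg groups overlapped only by KO replicate 4, at 1095 CPM, and WT replicate 3, at 1093 CPM. Il2rb was at 93.8 ± 87.5 CPM in KO and 204 ± 23.8 CPM in WT, while Id2 and Foxp1 had log2 fold changes of 0.05 (SE 0.19) and 0.00 (SE 0.51). Prdm1, which encodes Blimp-1, the repressor that antagonises Bcl6, was at 17.4, 28.3, 32.9 and 26.7 CPM in KO replicates 1 to 4. In WT replicates 1 to 4 it was at 106, 66.1, 24.1 and 190 CPM. WT replicate 3 lay among the KO libraries, and the log2 fold change of -1.87 had an SE of 0.99 (edgeR adjusted p = 1.0). The estimates of Bcl6 and of its antagonist Prdm1 thus pointed the same way, and neither passed.

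Of 20 contact and help molecules, 18 were tested and 0 passed, with 10 estimates higher and 8 lower and a median log2 fold change of 0.01. Of the 18, 2 were higher and 0 lower at an unadjusted p under 0.05, beside 3.84% of all tested genes in either direction. Tnfrsf4 (OX40), the most abundant of them, was at 3872 ± 670 CPM in KO and 3755 ± 654 CPM in WT. Ctla4 was at 896 ± 171 CPM in KO and 908 ± 351 CPM in WT, and Cd28 at 896 ± 242 CPM in KO and 622 ± 49.2 CPM in WT. Gpr183, an oxysterol receptor, Cd84, a receptor of the Slamf6 family, and Cd40lg, the ligand by which T cells activate B cells, had log2 fold changes of -0.08 (SE 0.28), 0.04 (SE 0.44) and -0.54 (SE 0.45). Pdcd1, which encodes PD-1, high on both follicular and peripheral helper cells, was at 66.3, 50.6, 42.1 and 0 CPM in KO replicates 1 to 4, against 118, 102, 33.1 and 68.9 CPM in WT replicates 1 to 4. Those groups overlapped. Tnfsf8 (CD30 ligand), named after its values were seen, was the 1 gene of this list with every KO library above every WT library. It was at 207 ± 65.6 CPM in KO and 81.5 ± 27.6 CPM in WT (log2 fold change 1.34, SE 0.45, edgeR adjusted p = 0.655). Of all tested genes, 1.52% had that pattern. Cxcl13, the B cell attractant of human peripheral helper cells, had counts in WT replicate 2 alone, at 3.25 CPM.

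Of 8 genes of homing to inflamed tissue, 6 were tested and 0 passed, with 3 estimates higher and 3 lower and a median log2 fold change of -0.17. Of the 6, 0 were higher and 2 lower at an unadjusted p under 0.05, beside 3.84% of all tested genes in either direction. Cxcr6, a receptor of T cells resident in inflamed tissue, was at 897, 452, 991 and 972 CPM in KO replicates 1 to 4, against 1451, 1920, 1069 and 2106 CPM in WT replicates 1 to 4. Every KO library was below every WT library (log2 fold change -0.98, SE 0.29, edgeR adjusted p = 0.460). Of all tested genes, 4.62% had that pattern. Cxcr3, a receptor of interferon-induced chemokines, was at 81.4 ± 25.3 CPM in KO and 183 ± 63.4 CPM in WT. The Cxcr3 groups overlapped through WT replicate 3 alone, at 93.0 CPM. Ccr2, at 1061 ± 475 CPM in KO and 716 ± 163 CPM in WT, and Ccr6 and Cxcr4, with log2 fold changes of 0.33 and -0.35, also overlapped. Sox4 had 0 counts in all 8 libraries.

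**Figure D4:**
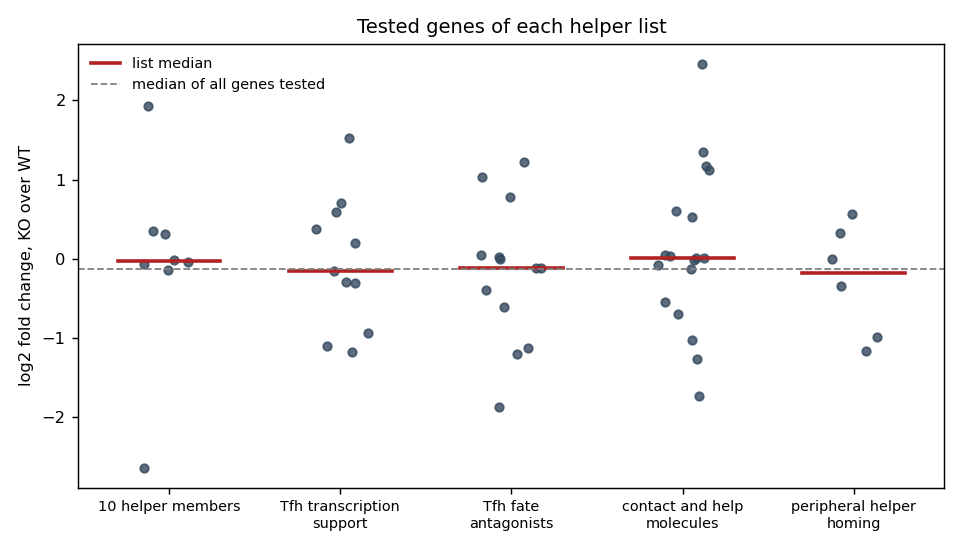
Log2 fold change of Slc7a5 KO over WT for the tested genes of the helper list and of the 4 further lists (Tfh for follicular helper T cell, points for genes, red lines for the median of each list, dashed line for all tested genes). The medians lie from -0.17 to 0.01, near the median of all tested genes at -0.12.

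The sorted identity was checked on 9 T cell markers, of which 0 passed, with 0 estimates higher and 9 lower in KO and a median log2 fold change of -0.45. At an unadjusted p under 0.05, 3 of them were lower, beside 3.84% of all tested genes in either direction. For Cd3e, Cd247 and Cd5 every KO library was below every WT library, as for 4.62% of all tested genes. Their summed CPM was 5478 to 8037 in KO and 7293 to 10537 in WT. Cd3e was at 365 ± 24.2 CPM in KO and 477 ± 66.2 CPM in WT. Cd4 was at 427, 344, 402 and 1.78 CPM in KO replicates 1 to 4, against 570, 373, 388 and 501 CPM in WT replicates 1 to 4. KO replicate 4 was thus nearly without Cd4 transcript, while its summed T cell markers, at 8037 CPM, were the highest of the KO libraries. Foxp3, of regulatory T cells, which can share Icos, Maf and Il2ra with helper cells, was at 69.8 ± 29.4 CPM in KO and 95.6 ± 45.1 CPM in WT. The 7 regulatory T cell markers summed to 4998 to 7626 CPM in KO and 4258 to 6598 CPM in WT, and the 6 Th17 markers to 1181 to 2722 CPM in KO and 701 to 3434 CPM in WT, with overlapping ranges. The 8 CD8 T and natural killer cell markers summed to 123 to 275 CPM in KO and 516 to 636 CPM in WT, without overlap. Klrc1 and Klrk1 gave most of the WT sum, at means of 395 and 180 CPM in WT against 109 and 66.9 CPM in KO. Cd8b1 went the other way in KO replicate 4, at 123 CPM, the whole sum of that library. Its WT libraries were at 0 to 20.3 CPM. Cd8a had counts in WT replicate 2 alone, and Ncr1, Klra8 and Eomes had 0 counts in all 8 libraries. The part of these markers in the values of the helper genes was not tested.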

How the data were processed

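RNA of sorted knee CD4+ T cells was amplified as cDNA with a kit for low input and sequenced by Illumina NovaSeq, per the labels' protocols. The deposited values are raw counts of reads for each gene symbol, which the authors had not normalized. The tools listed are edgeR 3.28.1, featureCounts and HISAT2 2.1.0, with the mm10 build, per the submitters' processing notes. Annotation, strand setting and duplicate handling are not given in the sources used here. Reads without molecular identifiers are not independent molecules, so floors cover counting error only.

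From these counts, genes were filtered with filterByExpr of edgeR 4.0.16 (R 4.3.3; minimum count 10, minimum total 15), scaled by TMM and compared, KO over WT, by the quasi-likelihood test (robust), with genotype alone in the model and Benjamini-Hochberg adjustment over 8489 genes. The SE was obtained by dividing the log2 fold change by the square root of F. Tox2 and Slc7a5, below the filter, come from the same fit without it. Single genes were also compared by two-sided exact permutation of the 8 libraries. No 2 libraries held identical counts. Positions, exon lengths and GC content are from GENCODE mouse annotation of GRCm38, whose coordinates mm10 shares.

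The alternatives were no filter, a filter of 50 counts in 4 libraries, 3 other scalings, DESeq2 1.42.0, limma 3.58.1 voom with and without quality weights, a block on the replicate number, a GC offset (loess, span 0.75), each library left out, and both replicates numbered 4 left out. The count of genes whose groups do not overlap was repeated with libraries left out after the data were seen. The members and gene lists were chosen with earlier results of these data known. Names were drawn from Slc7a5, the 10 members, the 6 genes of highest mean CPM in each further list, the 2 highest of each marker list, and Cd4, Cd3e, Foxp3, Pdcd1, Cxcl13, Prdm1 and Cd40lg; 2 further genes that the rule named are not reported here.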

Additional observations from a re-analysis of the deposited data

Results flagged for a closer look

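In 130 groups of 4 libraries, the gap between the highest or lowest library and its nearest neighbour was compared with the range of the group. In 13 groups that gap took more of the range than 1 in 20 groups of 4 would show by chance. Where all other libraries of a group are at 0, as for Tox2, Cd22 and Cxcl13, any count meets this rule. That rate then does not apply. Among the helper genes, Cd200 in WT replicate 4 stood apart at 0.0883 CPM, below the other WT libraries at 54.3 to 61.0 CPM. Cxcr5 in KO replicate 2 stood apart at 59.8 CPM, above the other KO libraries, and so did Tox2 in KO replicate 2 at 3.67 CPM. The same library was the high one for Cd84, a receptor of the Slamf6 family, at 422 CPM. Cxcl13 was at 3.25 CPM in WT replicate 2 and at 0 in the other WT libraries.

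Among markers of other cells, Cd22 was at 31.4 CPM in KO replicate 1. Cd74 was at 1970 CPM in WT replicate 1, where the summed markers of monocytes, macrophages and dendritic cells were at 3040 CPM and H2-Ab1 at 601 CPM. H2-Ab1 was low in KO replicate 3, at 262 CPM. Il17f was high in WT replicate 4, at 2980 CPM, as was the sum of endothelial and stromal markers, at 311 CPM. The regulatory T cell markers summed to 7630 CPM in KO replicate 4.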

How the results depend on the processing

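Under none of the alternatives run did a helper gene pass the adjusted threshold. The number of all genes called, 0 with edgeR, was 387 with DESeq2, 4 with limma voom and 4 with voom quality weights. Bcl6 stayed lower in KO (log2 fold change -3.44 to -2.24), Tox2 lower (-9.36 to -0.53), and Cd200 (1.39 to 3.49) and Slamf6 (0.04 to 0.58) higher in every alternative that gave a value; Tox2 had no value with upper quartile scaling, voom or the GC offset, and Bcl6 none with the stricter filter. The other 5 genes, with estimates near 0 or resting on 1 library, turned sign somewhere, and the cause was not tested. Il21 was -1.99 with voom, and Maf 0.0044. Cxcr5 was 0.0042 with RLE scaling and 0.0044 with DESeq2, and Icos 0.021 with RLE scaling, 0.020 with DESeq2 and 0.021 with voom. With voom quality weights Icos was 0.11, Sh2d1a 0.11 and Maf 0.19. Cxcr5 was -4.56 with voom, -4.52 with quality weights and -5.48 with the replicate block. With the GC offset Cxcr5 was 0.39, Icos 0.16, Sh2d1a 0.020 and Maf 0.30. With both replicates numbered 4 left out Cxcr5 was 0.014, Icos 0.13, Sh2d1a 0.27 and Maf 0.17, and 1 helper gene, Bcl6, had every KO library below every WT library. Leaving out 1 library at a time, the log2 fold change ran from -0.54 to 0.76 for Il21, -5.67 to 0.38 for Cxcr5, -0.16 to 0.13 for Icos, -0.33 to 0.11 for Sh2d1a and -0.32 to 0.20 for Maf, and the number of helper genes with every KO library below every WT library from 0 to 1. The labels give both genotypes the numbers 1 to 4. Same-numbered libraries did not deviate together (correlations -0.017 to 0.035), and 3 of 8 libraries were closest to their own number. With the replicate block 0 genes and 0 helper genes were called, Il21 was -0.41, Icos 0.0089, and the median of all genes -0.68. The median of all tested genes was -0.22 with library totals and 0.15 with the GC offset. It was -1.28 with limma voom and -0.36 with voom quality weights, so voom lowered the estimates of genes in general. Of 76 values of the medians of the further lists, 73 moved by less than 1 SD. Scarce genes such as Bcl6 and Tox2 are limited by detection, since 43.7% of the tested genes were at 0 in KO replicate 4 and 15.3% in WT replicate 4.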

Other observations

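Slc3a2, which encodes the heavy chain partner of the transporter, was at 406, 471, 378 and 407 CPM in KO replicates 1 to 4, against 350, 340, 261 and 235 CPM in WT replicates 1 to 4. Every KO library was above every WT library, as for Cd200 and for 1.52% of all tested genes. The Slc3a2 log2 fold change of 0.49 (SE 0.25) did not pass. Btla, a receptor of follicular helper cells that restrains them, was at 175, 98.4, 100 and 0 CPM in KO replicates 1 to 4, against 20.6, 4.84, 103 and 43.1 CPM in WT replicates 1 to 4. Both genes were chosen after their values were seen.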
